A study of Mus musculus with 9 samples.

Results

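The retinoblastoma family of pocket proteins and the E2F transcription factors were followed in MEFs, the fibroblasts that grow out of mouse embryos in culture. The sample titles call these cells quiescent, and the arrays do not measure whether they had stopped dividing. The 10 genes are Rb1, Rbl1 and Rbl2 for the pocket proteins pRB, p107 and p130, and E2f1, E2f3, E2f4, E2f5, E2f6, E2f7 and E2f8. They were found by their symbol in the platform annotation, each through its brightest probe set with that symbol alone, out of 19937 genes measured in this way. All 10 were among the 11962 genes tested, those whose mean over the arrays was at or above 7.24 on the log2 scale, the 40th percentile. Every member read above that value on all 9 arrays, the lowest being 7.72, so none passed through 1 genotype alone.

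RNA was hybridised to 9 Affymetrix arrays, 3 for each of 3 genotypes of Cdkn1b, the gene of the cyclin-dependent kinase (CDK) inhibitor p27. The genotypes are wild type (WT), p27CK (CK) and p27KO (KO). The labels give p27CK as a name only; elsewhere it is used for a p27 unable to bind cyclins and CDKs. All cells were grown in 10% serum and then starved of serum for 72 h. The protocol shared by all samples speaks of delta51 mice and does not say which genotype this is, and separate embryos or cultures behind the 3 arrays per genotype are not mentioned. The p-values below thus rest on array-to-array spread, possibly technical only, and effects of the cultures and of the genotype cannot be told apart. Cdkn1b served as the check of the labels: KO arrays averaged 7.38 ± 0.11 on the log2 scale against 11.46 ± 0.04 in WT, while CK averaged 11.10 ± 0.09 (SD, n = 3). These values come from its brightest probe set. Over 19 alternative fits, which include the mean of the probe sets of a gene, KO minus WT ranged from -4.12 to -1.96.

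All 12 fibroblast markers on the list, among them the intermediate filament gene Vim and the collagen genes Col1a1 and Col3a1, reached a log2 value of 10 in WT and CK, and 10 of 12 did in KO. Their levels were not equal: 10 of the 12 fell and 1 rose in KO against WT (median -0.71, where that of all genes was 0.01). Of all genes tested, 24.6% fell and 26.6% rose there. Thy1 stood at -4.59, Pdgfra at -1.32 and Postn at -1.15 in KO (log2 differences, each called by limma). In CK against WT, 4 of the 12 fell and 3 rose, where 32.1% and 30.7% of all genes did. Cartilage markers also differed between the genotypes. The mean of 11 such markers lay between 8.34 and 8.64 on the WT arrays, between 7.75 and 7.79 on the CK arrays and between 10.85 and 11.18 on the KO arrays. Of the 10 tested, all 10 rose in KO against WT. In CK against WT, 5 fell, 1 rose and 4 were not called, and Cnmd weighs heavily on the mean there (difference -6.03). The means of the muscle, macrophage, endothelial, epithelial and neural markers stayed at or below 7.47 on every array, though single genes such as Cd68 and Map2 exceeded 10 in WT. The part of these differences in the results on the 10 genes was not tested. In a bulk sample, a change in the share of cells of one kind and a change of RNA per cell cannot be told apart.

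Pocket proteins bind E2F factors and hold E2F target genes in check until CDKs phosphorylate them, after which the targets are transcribed and DNA synthesis begins. E2f1 and E2f3 are known as activators that pair with pRB, while E2f4 and E2f5 bind p107 and p130 and act mainly as repressors. In resting fibroblasts p130 with E2f4 and the MuvB proteins forms the DREAM complex on cell cycle promoters. E2f6 represses without pocket proteins as part of a Polycomb complex, and the atypical factors E2f7 and E2f8 bind DNA without a DP partner and are themselves E2F targets. In published work p27 was reported to associate with p130 and E2f4 at promoters of quiescent fibroblasts, and the comparisons ask how the RNA of these factors differs when p27 is altered or absent.

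The start sites of several of these genes are shown because the genes moved differently between genotypes and some are known E2F targets. RefSeq promoter windows (build GRCm38.p6, 250 bases before to 50 bases after an annotated start, read along the gene) were at hand for 7 of the 10 genes. They were searched on both strands for the E2F word TTCCCGC and for its variants, which are TTGCCGC as well as TTCGCGC and also TTGGCGC. Matches are shown in capitals. Windows of Rbl1 (chr2:157204485-157204784, minus strand), Rbl2 (chr8:91069807-91070106, plus strand), E2f3 (chr13:29986014-29986313, minus strand), E2f7 (chr10:110745189-110745488, plus strand) and E2f8 (chr7:48881547-48881846, minus strand) read as follows.
Rbl1: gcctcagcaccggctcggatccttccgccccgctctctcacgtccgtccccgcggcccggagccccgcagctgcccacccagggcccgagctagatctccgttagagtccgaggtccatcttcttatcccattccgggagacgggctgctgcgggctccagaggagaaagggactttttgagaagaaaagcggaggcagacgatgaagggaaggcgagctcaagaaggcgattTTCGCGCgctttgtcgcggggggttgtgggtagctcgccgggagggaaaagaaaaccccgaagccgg
Rbl2: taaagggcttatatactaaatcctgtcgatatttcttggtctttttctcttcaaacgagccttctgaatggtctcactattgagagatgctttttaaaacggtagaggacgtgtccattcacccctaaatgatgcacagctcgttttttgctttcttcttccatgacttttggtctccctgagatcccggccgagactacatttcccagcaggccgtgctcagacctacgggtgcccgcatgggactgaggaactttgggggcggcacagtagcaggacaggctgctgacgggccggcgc
E2f3: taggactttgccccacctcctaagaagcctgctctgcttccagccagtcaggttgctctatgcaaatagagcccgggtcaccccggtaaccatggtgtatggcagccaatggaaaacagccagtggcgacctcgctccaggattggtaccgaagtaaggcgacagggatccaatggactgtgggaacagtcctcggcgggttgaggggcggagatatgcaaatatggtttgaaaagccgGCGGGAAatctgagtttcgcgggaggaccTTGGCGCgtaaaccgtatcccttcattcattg
E2f7: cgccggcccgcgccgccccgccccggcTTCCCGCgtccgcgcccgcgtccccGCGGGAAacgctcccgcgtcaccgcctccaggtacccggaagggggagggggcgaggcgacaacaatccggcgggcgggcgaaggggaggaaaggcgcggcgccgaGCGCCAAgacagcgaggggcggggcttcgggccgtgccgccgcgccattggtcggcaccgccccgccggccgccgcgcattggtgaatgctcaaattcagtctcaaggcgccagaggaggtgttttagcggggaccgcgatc
E2f8: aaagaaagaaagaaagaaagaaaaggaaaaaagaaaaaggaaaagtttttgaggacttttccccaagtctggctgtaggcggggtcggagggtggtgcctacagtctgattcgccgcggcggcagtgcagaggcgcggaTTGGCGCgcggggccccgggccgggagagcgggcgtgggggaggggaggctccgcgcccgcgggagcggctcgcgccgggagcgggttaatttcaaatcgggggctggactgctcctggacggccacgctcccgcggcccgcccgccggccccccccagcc

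The window of Rbl1 holds 1 E2F word, that of E2f3 holds 2, that of E2f7 holds 3 and that of E2f8 holds 1, while the window of Rbl2 holds 0. In Rbl1 the word began at base -17 from the start site, in E2f3 at -11 and 19 (the start site being base 1), in E2f7 at -223, -198 and -92, and in E2f8 at -111. An E2F word is present in 9.57% of all 32817 windows of this length in the table. With a further T in front the words occur in 2.26% of windows, and the Rbl1 word, the first of E2f3 and the middle one of E2f7 have this longer form. The word TTTGAA, the core of the cell cycle homology region (CHR) that MuvB can bind, was found in the windows of Rbl2, E2f3 and E2f8 and in 17.9% of all windows. The start sites used for E2f8 and E2f1 lie 477 and 466 bases inside the annotated gene, so those windows may not be the promoters in use. The window of E2f1, that of E2f6 and a second one of E2f3 hold no E2F word. These matches are letters and not measured binding.

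Rbl2, the gene of p130, was lowest in CK and highest in KO. The WT arrays read 10.43, 10.46 and 10.46, the CK arrays 9.53, 9.66 and 9.78, and the KO arrays 10.99, 10.96 and 10.89 (log2). The 3 genotypes form 3 separate bands with no array of one inside the range of another. Rbl2 rose in KO by 0.50 over WT (SE 0.07, 1.41-fold, limma adjusted p = 0.000101). In CK it fell by 0.80 (SE 0.07, limma adjusted p = 1.98e-06), and it was 2.45-fold lower in CK than in KO (log2 difference -1.29, limma adjusted p = 4.09e-08). Both comparisons with WT share the same WT arrays, whereas the third does not use them.

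Rbl1, the gene of p107, moved the other way in CK. WT arrays read 8.80, 8.82 and 8.81, CK arrays 9.49, 9.23 and 9.33, and KO arrays 8.80, 8.86 and 8.94. Each CK array lay above all WT and KO arrays, and the WT and KO ranges met. Rbl1 rose in CK by 0.54 over WT (SE 0.07, limma adjusted p = 5.84e-05) and was 0.48 above KO (limma adjusted p = 0.000139). KO differed from WT by 0.06, with a 95% interval of -0.09 to 0.22, and was not called.

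Rb1 itself was not called in any comparison. Its arrays read 9.65, 9.55 and 9.68 in WT, 9.31, 9.58 and 9.59 in CK, and 9.76, 9.67 and 9.60 in KO. The genotypes overlapped except that the CK arrays lay just below the KO arrays. The 95% interval of the difference from WT was -0.13 to 0.23 in KO and -0.32 to 0.05 in CK. CK read 0.18 below KO (limma adjusted p = 0.0762), and this passed the threshold without CK replicate 3 (adjusted p = 0.0462) and with array weights (0.00977).

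**Figure D1:**
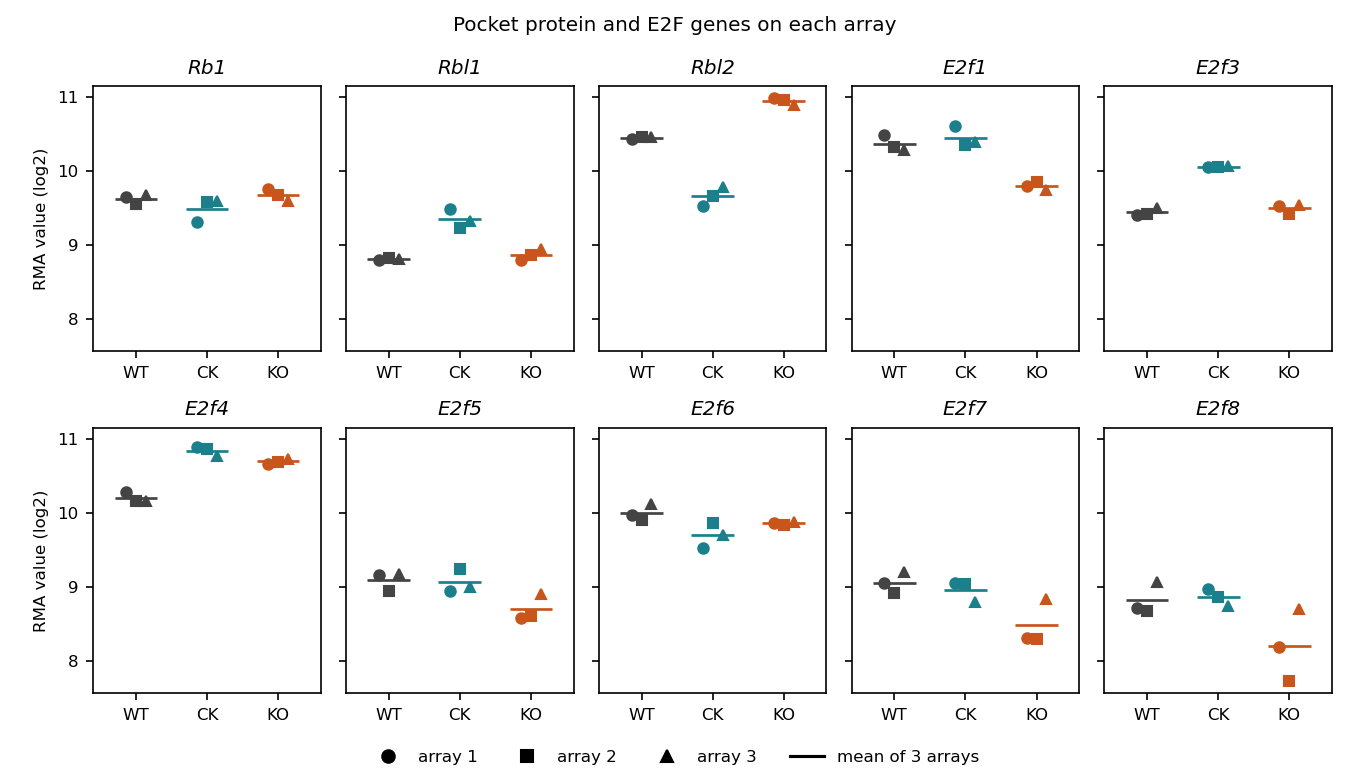
Log2 RMA value of each of the 10 genes (one panel each) on every array of WT, CK and KO cells; symbols stand for the array number and lines for the mean of 3 arrays. Rbl2 shows 3 separate bands with CK lowest and KO highest, E2f3 stands between 10.05 and 10.07 in CK, and E2f8 spreads from 7.72 to 8.70 in KO.

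The gap between the genes of p130 and p107 within each array restates these differences and is given as a description with no test, since both genes had been seen to move. Rbl2 minus Rbl1 averaged 0.30 ± 0.23 in CK, 1.64 ± 0.01 in WT and 2.08 ± 0.12 in KO (log2 of the probe set values, SD, n = 3). The level of this gap depends on the probes and is no ratio of transcripts, but its change between genotypes is comparable. It was narrower by 1.34 in CK than in WT (difference -1.34) and wider by 0.44 in KO, with no overlap of arrays. Rbl2 minus Rb1 moved the same way, from 0.83 ± 0.07 in WT to 0.16 ± 0.07 in CK and 1.27 ± 0.04 in KO.

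E2f1 was lowest in KO. WT arrays read 10.49, 10.33 and 10.29, CK arrays 10.61, 10.36 and 10.39, and KO arrays 9.80, 9.85 and 9.74. All KO arrays lay below all others. E2f1, an activator that drives entry into S phase, fell in KO by 0.58 from WT (SE 0.08, limma adjusted p = 0.000133) and CK was 0.66 above KO (limma adjusted p = 3.34e-05). CK did not differ detectably from WT (difference 0.08, 95% interval -0.09 to 0.26).

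E2f3, the other activator among the 10, rose in CK instead. Its brighter probe set read 9.40, 9.42 and 9.50 in WT, 10.05, 10.06 and 10.07 in CK, and 9.53, 9.42 and 9.54 in KO. CK arrays stood clear of the others by more than the spread within any genotype. The rise over WT was 0.62 (SE 0.05, 1.54-fold, limma adjusted p = 3.01e-06) and the difference from KO 0.56 (limma adjusted p = 5.85e-06). The dimmer probe set of E2f3 averaged 9.29 ± 0.07 in CK against 8.67 ± 0.13 in WT and 8.85 ± 0.09 in KO (SD, n = 3). It gave 0.63 for CK against WT and 0.44 for CK against KO, both called. KO against WT was called on neither probe set (0.06 and 0.19). E2f2, the third activator, read close to the filter in each genotype (7.30 in WT, 7.32 in CK and 7.25 in KO) and was not called.

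E2f4, the usual partner of p130 in resting cells, was higher in both mutants than in WT. WT arrays read 10.28, 10.16 and 10.16, CK arrays 10.89, 10.87 and 10.77, and KO arrays 10.67, 10.69 and 10.74. Every mutant array lay above every WT array. E2f4 rose by 0.64 in CK (SE 0.06, limma adjusted p = 3.67e-06) and by 0.50 in KO (SE 0.06, limma adjusted p = 3.29e-05). The CK arrays lay above the KO arrays by 0.14 on average (limma adjusted p = 0.0567, 95% interval 0.01 to 0.26). That difference passed the threshold with arrays centred on their median (adjusted p = 0.0489), with array weights (0.0158), and without WT replicate 1 (0.0491) or CK replicate 3 (0.0304).

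Rbl2 and E2f4 thus rose together in KO, while in CK one fell and the other rose. E2f4 minus E2f1, the repressor set against the activator within each array, averaged -0.17 ± 0.04 in WT and 0.39 ± 0.11 in CK, and it was widest in KO at 0.91 ± 0.09 (log2, SD, n = 3). The 3 genotypes did not overlap in this gap, which likewise restates the differences of its genes. E2f4 minus E2f3 read 0.76 ± 0.11 in WT and 0.78 ± 0.07 in CK, where both genes were higher, and 1.21 ± 0.06 in KO.

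**Figure D2:**
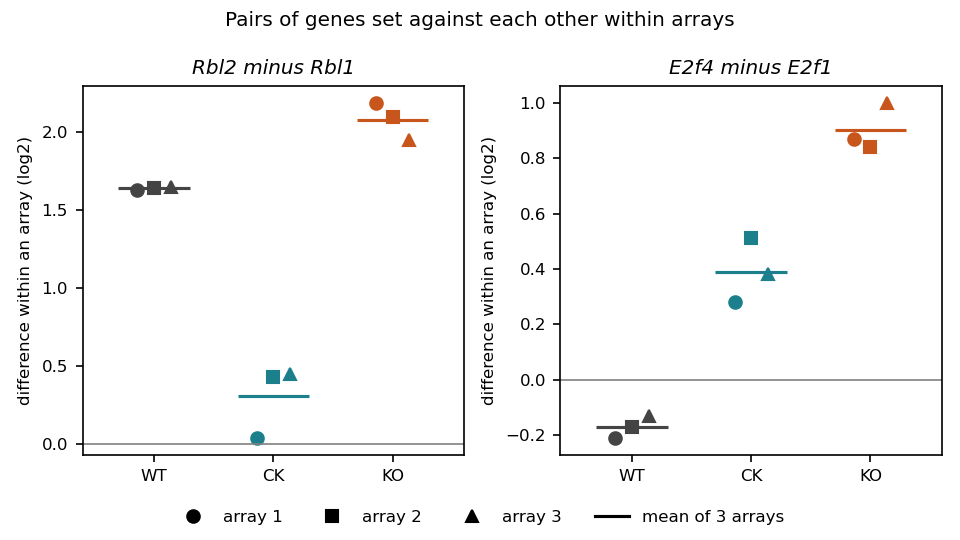
Difference of 2 genes within each array (log2) by genotype, for Rbl2 minus Rbl1 on the left and E2f4 minus E2f1 on the right; symbols are arrays and lines are means of 3. The gap of Rbl2 over Rbl1 averages 0.30 in CK, 1.64 in WT and 2.08 in KO, and E2f4 minus E2f1 goes from -0.17 in WT to 0.91 in KO.

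E2f5, the second repressor that binds p107 and p130, was lower in KO. WT arrays read 9.16, 8.95 and 9.18, CK arrays 8.95, 9.24 and 9.00, and KO arrays 8.58, 8.61 and 8.90. The KO arrays lay below the others, with KO replicate 3 only just so. E2f5 fell in KO by 0.40 from WT (SE 0.11, limma adjusted p = 0.01), and CK did not differ detectably from WT (difference -0.03, 95% interval -0.27 to 0.20). CK was 0.36 above KO (limma adjusted p = 0.0123), a call that was lost without CK replicate 2 (adjusted p = 0.052) or KO replicate 1 (0.0518).

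E2f6, the pocket-independent repressor, had the smallest called difference from WT of the 10 genes. It read 9.97, 9.90 and 10.13 in WT, 9.53, 9.87 and 9.70 in CK, and 9.87, 9.84 and 9.88 in KO. CK arrays lay below WT arrays, the nearest pair being 9.87 in CK and 9.90 in WT. E2f6 fell in CK by 0.30 (SE 0.09, limma adjusted p = 0.0117), and KO was not called against WT (difference -0.14) or against CK, except against CK without CK replicate 2 (adjusted p = 0.0252).

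E2f7 and E2f8, the atypical repressors, were lower in KO, with unequal KO arrays. E2f7 read 9.05, 8.92 and 9.20 in WT, 9.05, 9.04 and 8.79 in CK, and 8.31, 8.30 and 8.83 in KO. E2f8 read 8.71, 8.67 and 9.07 in WT, 8.97, 8.86 and 8.74 in CK, and 8.18, 7.72 and 8.70 in KO. KO replicate 3 was the highest KO array for both genes. It reached the WT range for E2f8 and the CK range for E2f7 (8.83 against 8.79 on CK replicate 3). E2f7 fell in KO by 0.58 from WT (SE 0.14, limma adjusted p = 0.00577) and CK was 0.48 above KO (limma adjusted p = 0.0123). E2f8 fell in KO by 0.61 (SE 0.20, limma adjusted p = 0.0273) and CK was 0.66 above KO (limma adjusted p = 0.0161). Neither gene was called in CK against WT, where the differences were -0.10 and 0.04.

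Of the calls on the atypical factors, that of E2f8 in KO against WT was the least firm. E2f8 in KO against WT was lost without WT replicate 3 (difference -0.49, adjusted p = 0.102), without KO replicate 1 (-0.60, 0.0674), without KO replicate 2 (-0.38, 0.087), with no filter on dim genes (adjusted p = 0.0557) and in a fit of the 6 arrays alone (0.0582). E2f8 in CK against KO was lost without CK replicate 1 (adjusted p = 0.0543). E2f7 kept its call in KO against WT in all 17 alternatives run, and lost that of CK against KO without KO replicate 1 (difference 0.40, adjusted p = 0.0518) or KO replicate 2 (0.39, 0.0509).

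**Figure D3:**
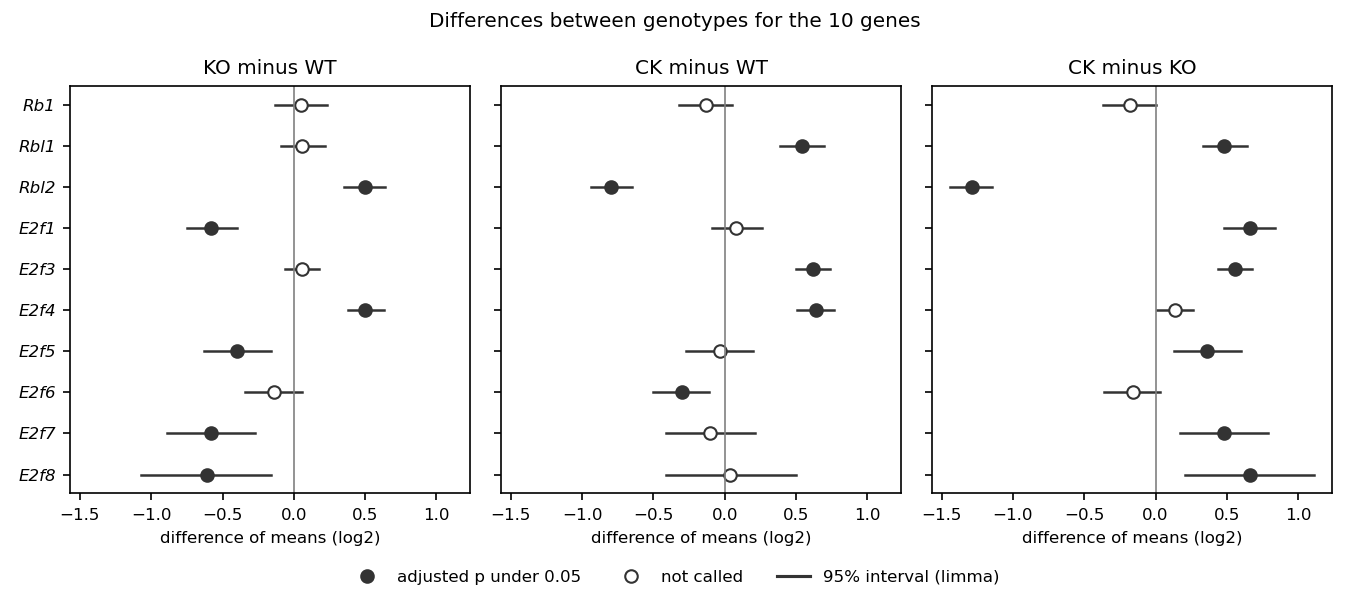
Difference of genotype means (log2) for the 10 genes in KO minus WT, CK minus WT and CK minus KO; lines are 95% intervals from limma, filled points have an adjusted p under 0.05. The widest intervals are those of E2f7 and E2f8, and the largest difference is that of Rbl2 in CK minus KO, -1.29.

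Counted over the 10 genes, 6 were called between KO and WT, where 51.2% of all 11962 genes tested were called. Of these, 2 rose (Rbl2 and E2f4) and 4 fell (E2f1, E2f5, E2f7 and E2f8), against backgrounds of 26.6% higher and 24.6% lower. Between CK and WT 5 were called, with a background of 62.9%. Rbl1, E2f3 and E2f4 rose, and Rbl2 and E2f6 fell (30.7% and 32.1% of all genes). Between CK and KO 7 were called against a background of 62.2%. Of them, 6 were higher in CK and 1, Rbl2, was lower, where 29.5% and 32.7% of all genes were. With both directions together, the shares of called members lay near those of all genes in each comparison. By direction they lay farther apart in CK against KO, with 6 of 10 higher and 1 of 10 lower. The 4 of 10 lower in KO against WT lay nearer to the share of all genes. At an adjusted p under 0.01, E2f5 and E2f8 were no longer among these 4. At that threshold E2f5, E2f7 and E2f8 also lost their calls in CK against KO.

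Arrays did not overlap for 6 of 10 members between KO and WT, where 60.9% of all genes did not overlap. The count was 5 between CK and WT (background 67.3%) and 8 between CK and KO (67.5%). The median absolute log2 difference of the members was 0.45 in KO against WT, 0.22 in CK against WT and 0.48 in CK against KO. Over all genes tested it was 0.20, 0.28 and 0.27.

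The DP proteins, which pair with E2f1 to E2f6 to bind DNA, were higher in both mutants. Tfdp2 rose by 0.62 in KO (limma adjusted p = 0.000114) and by 0.97 in CK (2.62e-06) over WT. Tfdp1 rose by 0.35 in KO (limma adjusted p = 0.00286) and by 0.58 in CK (6.42e-05). Both were higher in CK than in KO, by 0.35 and 0.23, and the Tfdp1 call there was lost without CK replicate 1 or 2, without KO replicate 1 or 2, and at an adjusted p under 0.01.

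The MuvB and DREAM genes went both ways. Of 9 tested, 2 rose and 2 fell in KO (median -0.08, where the median of all genes was 0.01), and 3 rose and 3 fell in CK (median 0.03, all genes -0.01), near the shares of all genes (26.6% higher and 24.6% lower in KO, 30.7% and 32.1% in CK). Lin52, the MuvB subunit whose phosphorylation by Dyrk1a lets p130 join, rose in KO by 0.37 (limma adjusted p = 0.00453) and fell in CK by 0.53 (0.000368). Lin54, the subunit that binds DNA, fell in KO by 0.43 (limma adjusted p = 0.000172) and rose in CK by 0.27 (0.00246). Rbbp4, a histone-binding subunit, rose in CK by 0.74 (limma adjusted p = 1.13e-05) and was not called in KO (0.09). Mybl1, a Myb factor, rose in KO by 0.60 (limma adjusted p = 0.000324). Mybl2, whose product B-Myb takes the place of p130 on MuvB in cycling cells, rose in CK by 0.59 (0.00331). Falls in KO numbered 1 in place of 2 without WT replicate 1 or 3 or KO replicate 1 or 2.

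Among the corepressors that pocket proteins recruit, 5 of 16 tested rose and 4 fell in KO (median 0.03), and 4 rose and 5 fell in CK (median 0.04). These counts lay near the shares of all genes, 26.6% higher and 24.6% lower in KO and 30.7% and 32.1% in CK. Hdac1, a histone deacetylase, fell in KO by 0.94 (limma adjusted p = 5.3e-08) and in CK by 0.42 (2.22e-05). Cbx5, the heterochromatin protein HP1 alpha, fell in KO by 0.71 (limma adjusted p = 7.09e-06). The alternative chromatin remodelling ATPases moved in opposite directions in CK: Smarca2 fell by 0.99 (limma adjusted p = 2.6e-07) and Smarca4 rose by 0.78 (6.31e-07).

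Genes of the E2f6 complex were called in about the shares of all genes tested (26.6% higher and 24.6% lower in KO, 30.7% and 32.1% in CK). Of 10 tested, 2 rose and 3 fell in KO, and 3 rose and 3 fell in CK. Rises in KO numbered 1 without WT replicate 3 or KO replicate 1 or 2, and rises in CK numbered 5 without WT replicate 2. Ring1, a ubiquitin ligase of this Polycomb complex, rose in KO by 0.36 (limma adjusted p = 0.000255) and fell in CK by 0.66 (2.09e-06). Yaf2, another subunit, went the other way, with a fall of 0.34 in KO (difference -0.34, limma adjusted p = 0.000169) and a rise of 0.39 in CK (3.62e-05). The germline genes that E2f6 is known to keep silent in somatic cells were mostly dim: 2 of 12 passed the filter, and the means of the other 10 genes in every genotype were at or below 6.43. Stag3, a cohesin subunit of meiosis, passed through CK alone, with 9.16 ± 0.21 there against 6.95 ± 0.16 in WT and 7.18 ± 0.06 in KO (SD, n = 3). Its difference of 2.21 in CK against WT (limma adjusted p = 3.7e-08) therefore bore on its being tested. Tuba3a, a testis tubulin, was the other gene tested and was not called.

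Cyclins, CDKs and their inhibitors, which set the phosphorylation of pocket proteins, were in part lower in KO than in WT and mostly higher in CK than in KO. Of 15 tested, 3 rose and 8 fell in KO (median -0.38), 6 rose and 5 fell in CK (median 0.13), and 10 were higher and 1 lower in CK against KO (median 0.71). Of all genes tested, 26.6% rose and 24.6% fell in KO, and 30.7% rose and 32.1% fell in CK. The counts in CK against WT thus lay near the background. In CK against KO, 29.5% of all genes were higher and 32.7% lower (median -0.02). The 8 that fell in KO and the 10 higher in CK than in KO include Cdkn1b, the altered gene. The genotype fixes its low level in KO. The D-type cyclin genes Ccnd1, Ccnd2 and Ccnd3 fell in KO, with differences of -1.17, -1.02 and -0.51 (limma adjusted p = 4.86e-05, 3.24e-07 and 5.58e-05). Ccnd1 and Ccnd3 also fell in CK, with differences of -0.47 and -0.24 (limma adjusted p = 0.0139 and 0.00642), and Ccnd2 was not called there. These 3 genes were named after their values were seen. Cdk6, which pairs with them, fell in KO (difference -2.58, limma adjusted p = 6.51e-11) and rose in CK by 0.60 (3.11e-06). Ccne1, a cyclin gene that is also an E2F target, fell in KO by 0.74 (limma adjusted p = 0.00031) and rose in CK by 0.73 (0.00023). Ccne2, the other cyclin E gene, went the other way in KO, with a rise of 0.99 (limma adjusted p = 0.00129), and rose in CK by 1.25 (0.000183). Cdkn2a, which encodes the CDK inhibitor p16 and Arf, rose in both, by 1.12 in KO (limma adjusted p = 6.02e-07) and 3.18 in CK (2.85e-10).

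Of the 6 phosphatase subunits that can act on pocket proteins, 1 fell in KO (Ppp1cc, difference -0.20, limma adjusted p = 0.0233), and 3 rose in CK. Ppp1cc rose there by 0.23 (limma adjusted p = 0.00976). Without CK replicate 1 the rises in CK numbered 1, and the fall in KO was lost without WT replicate 2 or KO replicate 1 or 2, with further quantile normalization and at an adjusted p under 0.01. Among 8 genes of turnover, 0 rose and 2 fell in KO (1 fell without WT replicate 1 or KO replicate 1 or 2), and 2 rose and 3 fell in CK. Of all genes tested, 26.6% rose and 24.6% fell in KO, and 30.7% rose and 32.1% fell in CK. The turnover falls in KO and both counts in CK lay near these shares. The same shares apply to the 6 phosphatases, too few to be set apart from them. Skp2, the F-box protein through which p130 and p27 are degraded, fell in KO by 0.38 (limma adjusted p = 0.0159, lost without WT replicate 1 or KO replicate 1 or 2 and at an adjusted p under 0.01) and rose in CK by 0.51 (0.00224). Cul1, the scaffold of the same ligase, fell in KO by 0.37 (limma adjusted p = 0.000213) and in CK by 0.51 (1.44e-05). Psmd10, gankyrin, a binding partner of pRB, rose in CK by 0.60 (limma adjusted p = 6.65e-05).

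The target genes of E2F at G1/S were mostly higher in CK than in WT. In KO more were called lower than higher, but the falls lay nearer to the share of all genes. Of 36 tested, 27 rose and 0 fell in CK (median 0.46), while 4 rose and 12 fell in KO (median -0.14). In CK against KO 29 were higher and 0 lower (median 0.62). Over all genes the medians were -0.01, 0.01 and -0.02. Of all genes, 30.7% rose and 32.1% fell in CK, and 26.6% rose and 24.6% fell in KO. In CK against KO, 29.5% of all genes were higher and 32.7% lower. The falls in KO numbered 8 without KO replicate 1 or 2, 9 without WT replicate 1 or 3 and 5 at an adjusted p under 0.01. They numbered 14 without KO replicate 3 and 18 with array weights. Mcm2 and Mcm7, subunits of the replicative helicase, rose in CK by 0.84 (limma adjusted p = 1.67e-06) and 1.03 (2.5e-06). Rrm2, a subunit of ribonucleotide reductase, fell in KO by 0.86 (limma adjusted p = 0.000385). Cdc25a, a phosphatase that activates CDK2, was 0.78 higher in CK than in KO (limma adjusted p = 1.38e-06). A count of 0 falls in CK against WT became 1 in 5 other fits: without WT replicate 2, KO replicate 2 or KO replicate 3, with the replicate block, and in a fit of the 6 arrays alone. At an unadjusted limma p under 0.05, 1 of the 36 were lower in CK than in WT and 0 lower than in KO, where 1 was called without CK replicate 1.

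Among the DREAM targets of G2/M, more fell than rose in KO. Of 28 tested, 18 fell and 1 rose in KO (median -0.61), 10 rose and 1 fell in CK (median 0.49), and 20 were higher and 1 lower in CK against KO (median 0.87). Over all genes 26.6% rose and 24.6% fell in KO, and 30.7% rose and 32.1% fell in CK. Between CK and KO, 29.5% of all genes were higher in CK and 32.7% lower. The 10 rises in CK against WT thus lay near the background, while the 1 fall lay below its share. The median there was 0.49, against -0.01 over all genes. Aurkb, a mitotic kinase, fell in KO by 0.98 (limma adjusted p = 0.00103). Tpx2, a spindle assembly factor, rose in CK by 0.83 (limma adjusted p = 0.000434) and Cenpe, a kinetochore motor, was 1.65 higher in CK than in KO (5.41e-06). Cdc25b, which activates CDK1, fell in KO by 0.78 (limma adjusted p = 5.74e-06) and in CK by 1.05 (4.34e-07). The number that fell in KO was 24 without KO replicate 3, but 9 without KO replicate 2, 10 without KO replicate 1 and 9 without WT replicate 3. The counts of 9 and 10 lay nearer to the share of all genes. At an adjusted p under 0.01 the falls in KO numbered 8. Falls in CK numbered 5 without KO replicate 3, 2 without KO replicate 2 and 4 in a fit of the 6 arrays alone. The single rise in KO was lost without WT replicate 1 or 2 or KO replicate 3, and at an adjusted p under 0.01.

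**Figure D4:**
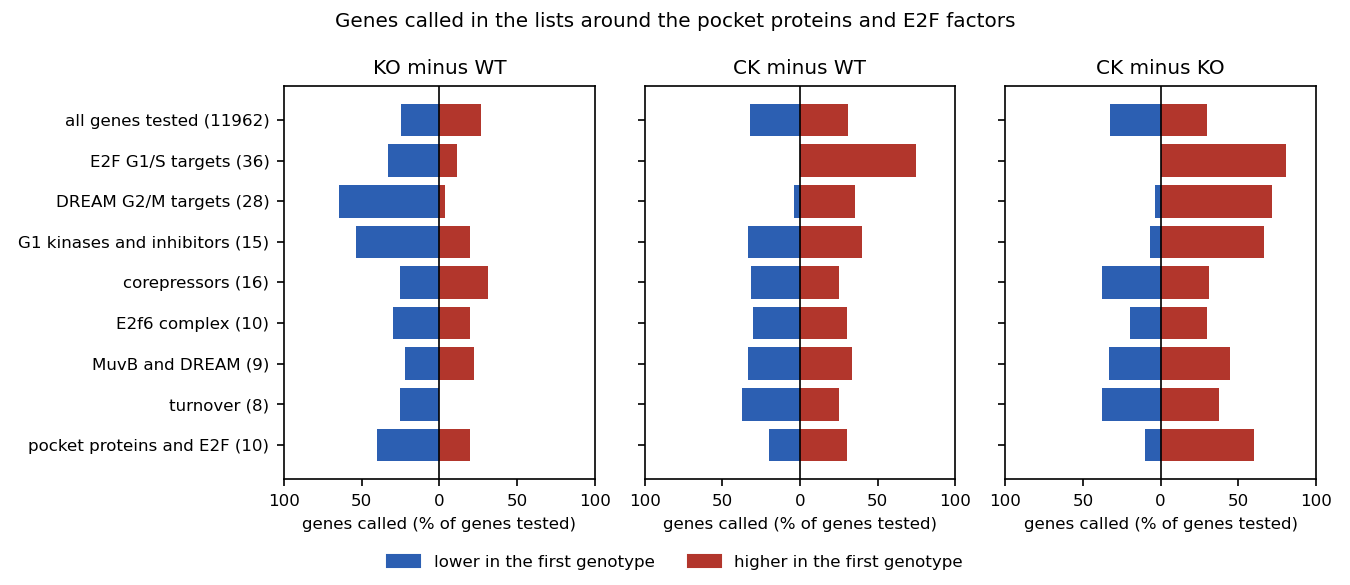
Share of the tested genes of each list (in %, number tested in parentheses) called lower (left, blue) or higher (right, red) in the first genotype of each comparison, beside all genes tested. The G1/S target list reaches 27 of 36 genes higher in CK minus WT with 0 lower, and the G2/M list 18 of 28 lower in KO minus WT.

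Within a genotype, E2f7 and E2f8 were high or low on the same arrays as these target lists. KO replicate 3 stood 0.46 above the KO mean in the median G2/M target and KO replicate 2 stood 0.33 below it (deviation -0.33). E2f8 deviated by 0.50 and -0.48 on the same arrays, and E2f7 by 0.35 and -0.18. WT replicate 3 was the highest WT array for the G2/M targets (0.20), E2f7 (0.14) and E2f8 (0.25). In CK, replicate 3 was the lowest for the G2/M targets (-0.26), E2f7 (-0.17) and E2f8 (-0.12). E2f5 was also highest on KO replicate 3 (0.20), whereas Rbl2, E2f3 and E2f4 deviated by 0.13 or less on every array. E2f7 and E2f8 share no probe set with the lists, but all values of an array share its RNA, and the part of such differences between arrays in the KO values was not tested.

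**Figure D5:**
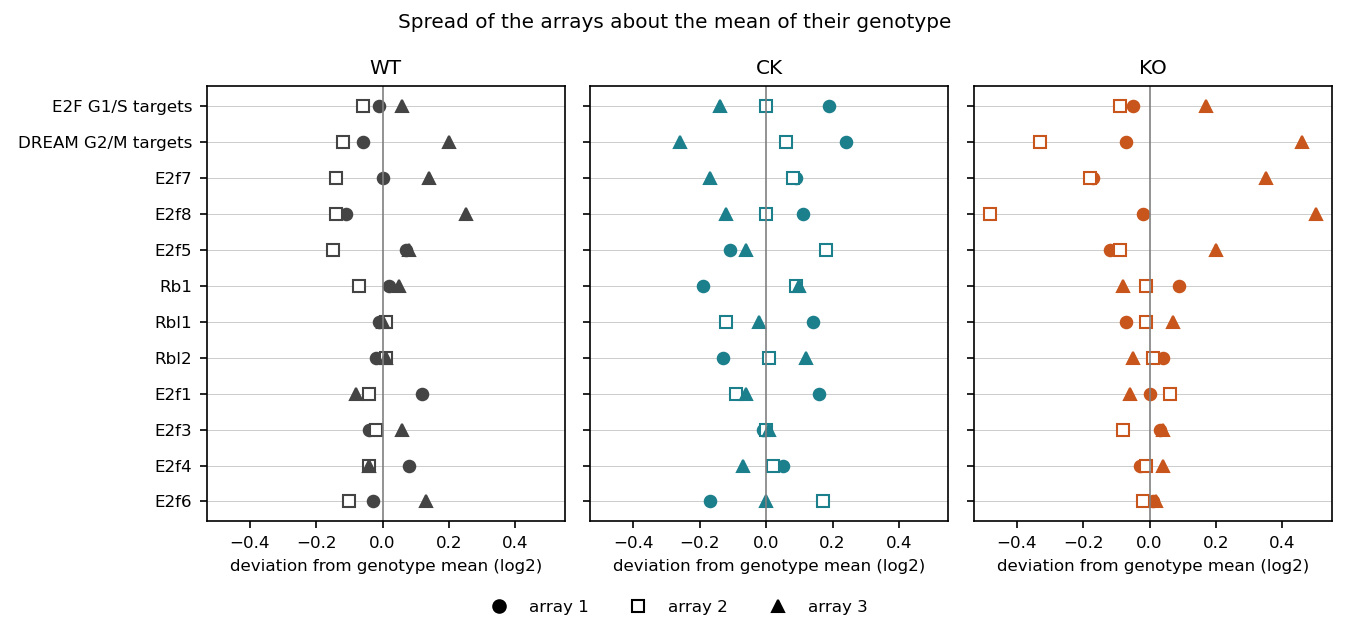
Deviation of each array from the mean of its genotype (log2) for the median of the G1/S and G2/M target lists and for the 10 genes, in WT, CK and KO; symbols are array numbers. In KO, replicate 3 stands at 0.46 for the G2/M list, 0.35 for E2f7 and 0.50 for E2f8, while Rbl2 and E2f4 keep close to 0.

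Across the 9 arrays the genes with the pattern most like that of Rbl2, by root mean square distance of centred log2 values over 11962 genes, were Marveld1 (0.066), Rhbdf1 (0.072) and Pawr (0.078). Rbl2 itself varied by 0.537 about its mean. Marveld1 averaged 11.63 in WT cells, 10.95 in CK cells and 12.14 in KO cells. For Rbl1, which varied by 0.253, the nearest were Bzw2 (0.044), Fam110a (0.046) and Galns (0.055), and Bzw2 averaged 10.30 in WT cells, 10.86 in CK cells and 10.35 in KO cells.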

How the data were processed

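Labelled cRNA was hybridised to each array. Deposited were log2 expression values for 34760 probe sets, which the authors made with RMA (affy), per the submitters' processing notes. Versions and filters are not given in the sources used here. RMA equalises the distribution of values between arrays, and a global change in RNA content is lost with it. The deposited cells, an other unit in themselves, are strings of 10 to 15 digits without a decimal mark. The mark was put after the second digit of strings that start with 1 and after the first digit of all others; the range is then 4.28 to 14.4. Array medians lay between 7.29 and 7.40, and correlations were 0.992 to 0.998 within and 0.848 to 0.892 between genotypes over the genes tested.

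The platform annotation gave 1 symbol to 21640 probe sets, several to 1321 and none to 11799; names followed RefSeq (GRCm38.p6) through gene identifiers. limma 3.58.1 in R 4.3.3 was fitted to 11962 genes over all 9 arrays with 1 coefficient per genotype (6 residual and 4.1 prior degrees of freedom), and p-values were Benjamini-Hochberg adjusted over all genes tested; called means an adjusted p under 0.05. The fit was tested on simulated data. The 10 genes and the lists were chosen with earlier results of these data known. Named genes are the 10 members, Cdkn1b, up to 2 called genes with the smallest p of each list and comparison, and the 3 genes nearest to Rbl2 and Rbl1; clone and gene-model names were skipped. Other genes named were chosen after their values were seen. Alternatives covered the dim-gene filter, probe set choice, scaling, variance model, array weights, 6-array fits, the replicate block, the threshold and omitted arrays.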

Additional observations from a re-analysis of the deposited data

How the results depend on the processing

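The alternatives were 10 other settings and the omission of each of 9 arrays. None reversed a called difference of the 10 genes. Members called were 4 to 6 between KO and WT, 4 or 5 between CK and WT and 4 to 9 between CK and KO. At an adjusted p under 0.01 the members called were 4 in place of 6 between KO and WT, and 4 in place of 7 between CK and KO. The count between KO and WT was also 4 with the filter at the 60th percentile, where E2f7 and E2f8 were not tested. Leaving out 1 array gave 5 to 6, 5 to 5 and 5 to 9 members called, and 5298 to 6227, 6959 to 7630 and 6788 to 7523 genes called. Other settings gave 4434 to 7489, 5442 to 8434 and 5367 to 8274 genes, the lowest with the filter at the 60th percentile, which tests 7975 genes. With the replicate number of the titles as a block, 5979, 7377 and 7291 genes and 6, 5 and 7 members were called, so the block changed no count of members. The numbers are not taken to pair the arrays: same-numbered arrays of different genotypes deviated together with correlations of -0.30 to 0.36, over 0.1 in 2 of 9 pairs. The dimmer probe set of E2f3 and the list counts under the alternatives were added after seeing the data. Median centring moved no array by more than 0.04. The arrays carry no detection calls, so nearness to background could not be tested, and 3 arrays per genotype limit the precision.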

Other observations

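Genes closest in pattern to the atypical factors included cell cycle genes, an observation made after the values were seen. Of 11962 genes tested, the nearest to E2f7 in root mean square distance over the 9 arrays were Tk1, a thymidine kinase of S phase (0.062), the mitotic kinase gene Cdk1 (0.090) and Tbxa2r, a thromboxane receptor (0.101). E2f7 itself varied by 0.306 about its mean. Nearest to E2f8, which varied by 0.396, were Ckap2l, a spindle protein (0.083), Dtl, an adaptor of a ubiquitin ligase in S phase (0.096), and Prc1, a regulator of the central spindle (0.109). Tk1 averaged 9.61 in WT cells, 9.44 in CK cells and 9.04 in KO cells, and Dtl 9.45, 9.52 and 8.81.

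The nearest gene to E2f4 was Mast2, a microtubule-associated kinase (distance 0.033), which averaged 10.31 in WT cells, 10.95 in CK cells and 10.79 in KO cells. The nearest to E2f3 was Tpm1, a tropomyosin gene (0.042), with 12.31, 12.93 and 12.39. The nearest to E2f1 was Zfp217, a zinc finger factor (0.068), with 9.07, 9.17 and 8.45. These likenesses rest on 9 arrays that fall into 3 genotypes and are descriptions only.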
